A study of Rattus norvegicus with 58 samples.

Results

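The synovium of arthritic rats after 5 days of RTD-1 was set against the synovium of untreated arthritic rats. The comparison used 12 of the 58 RNA libraries of the study, 8 from rats given RTD-1 for 5 days and 4 from untreated rats, chosen by the titles of their columns. All were female DA/OlaHsd rats injected with 250 µl of pristane at 6 to 8 weeks of age, and disease was left to run until each rear limb scored at least 3. RTD-1 was given under the skin in saline at 5 mg per kg. Arthritic rats given saline for 5 days (n = 8), untreated arthritic rats (pristane-induced arthritis, PIA, n = 4) and naive rats without arthritis (n = 4) are shown beside the RTD-1 rats. RTD-1 and saline rats were sampled after 5 days of injections that began once disease was established, and the labels do not give the sampling day of untreated PIA. Disease duration, injection and RTD-1 therefore cannot be told apart against untreated PIA, while rats given saline for 5 days shared the first 2 of these with the RTD-1 rats.

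The synovium is the lining of the joint capsule, in which fibroblasts and resident macrophages lie over a layer of fat and vessels. Pristane, a hydrocarbon oil, sets off a T cell dependent polyarthritis in DA rats, in which leukocytes enter the lining and the lining thickens. RTD-1, rhesus theta-defensin 1, is a macrocyclic peptide of macaque leukocytes known to damp the release of inflammatory cytokines from myeloid cells.

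The deposited table names genes by Ensembl identifier. The RefSeq table used here matched 0 of its 16879 identifiers, so pathways, cell type markers and gene names were not analysed here, and no label was checked against a marker gene. Functions are replaced below by what genes did in arthritis. Of the 13062 genes tested, 2100 (16.1%) were at least 2-fold higher and 1453 (11.1%) at least 2-fold lower in the 8 arthritic libraries of day 1, 4 given RTD-1 and 4 given saline, than in naive libraries (limma adjusted p under 0.05). These are called genes raised and genes lowered in arthritis. No RTD-1 day 5 library and no untreated PIA library chose them, so the difference between those groups is independent of the choice. The naive libraries did choose them, so comparisons of these sets with naive tissue are not independent of the choice.

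The RTD-1 day 5 libraries held 1541636 to 2870646 reads in genes, and the untreated PIA libraries 2091360 to 2536140. The deposited values were scaled to a library total larger than the reads in genes. Reads in genes made up 36.4% ± 3.99 of that total in RTD-1 day 5 libraries (SD, n = 8) and 43.2% ± 4.43 in untreated PIA (SD, n = 4), a difference of -6.77 percentage points (two-sided exact permutation p = 0.0242, 0.0968 after adjustment over 4 library measures). Together with this the median gene was 0.24 log2 lower after RTD-1 with the deposited scaling. It differed by 0.01 log2 with TMM factors, which centre the libraries on their middle genes. The part of the read share in the shift was not tested, and the main counts of genes are given with both scalings. The sets themselves were chosen with the deposited scaling. In whole tissue, fewer cells of a type and less RNA per cell cannot be told apart.

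Genes raised in arthritis had a median below untreated PIA after 5 days of RTD-1, genes lowered in arthritis a median above it, and both sets remained nearer to PIA than to naive tissue. With the deposited scaling 1656 of 13062 genes (12.7%) passed the test, 174 (1.33%) higher and 1482 (11.3%) lower after RTD-1 (limma, Benjamini-Hochberg adjusted p under 0.05). With TMM factors 1269 passed (9.72%), of which 684 (5.24%) were higher and 585 (4.48%) lower. The count of 1656 depended on single libraries. It was 810, 615 and 549 when PIA replicate 1, 2 or 4 was left out, and 1934 when PIA replicate 3 was. Without RTD-1 replicate 1 it was 1026. All 585 genes lower with TMM factors were also lower with the deposited scaling, of whose 1482 they are 39.5%. Of the 174 genes higher with the deposited scaling 173 were higher with both, 25.3% of the 684. Changes of at least 2-fold among called genes numbered 408 lower and 124 higher with the deposited scaling, and 135 lower and 252 higher with TMM factors. Changes of at least 4-fold numbered 21 lower and 39 higher, and 9 lower and 52 higher with TMM factors. Changes of at least 4-fold were thus more often increases under either scaling.

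Some genes separated the groups completely. All 8 RTD-1 libraries lay below all 4 untreated PIA libraries for 906 genes (6.94%) and above them for 73 (0.559%), or for 349 (2.67%) and 304 (2.33%) with TMM factors. Genes of high level were called more often than genes of low level. Of 4 equal bins of genes by mean level, the highest had 17.7% lower after RTD-1 and 0.612% higher, against 3.28% and 1.99% in the lowest bin. With TMM factors these shares were 8.14% lower and 7.5% higher in the highest bin, and 1.5% and 3.09% in the lowest.

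The 2100 genes raised in arthritis had a median log2 difference of -0.63 between RTD-1 day 5 and untreated PIA, with quartiles of -0.94 and -0.34. Over all genes tested the median was -0.24, and over the 9509 genes in neither set it was -0.24. Of the raised genes, 706 (33.6%) fell and 8 (0.381%) rose, against 11.3% and 1.33% of all genes. With TMM factors the median was -0.38, 351 (16.7%) fell and 37 (1.76%) rose, against 4.48% and 5.24% of all genes. A value below untreated PIA, of any size, was found for 1882 of the 2100 genes (89.6%), against 71.7% of all genes tested. With TMM factors it was found for 1688 (80.4%), against 49.4% of all genes.

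The 1453 genes lowered in arthritis had a median log2 difference of 0.33, opposite in sign to that of all genes. Among them 78 (5.37%) rose and 4 (0.275%) fell, against 1.33% and 11.3% of all genes, and with TMM factors 195 (13.4%) rose and 2 (0.138%) fell. The median was then 0.55 log2. A rise therefore passed the test in a smaller share of the lowered genes than a fall did in the raised genes with the deposited scaling (5.37% against 33.6%), and the shares were close with TMM factors (13.4% against 16.7%).

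**Figure D1:**
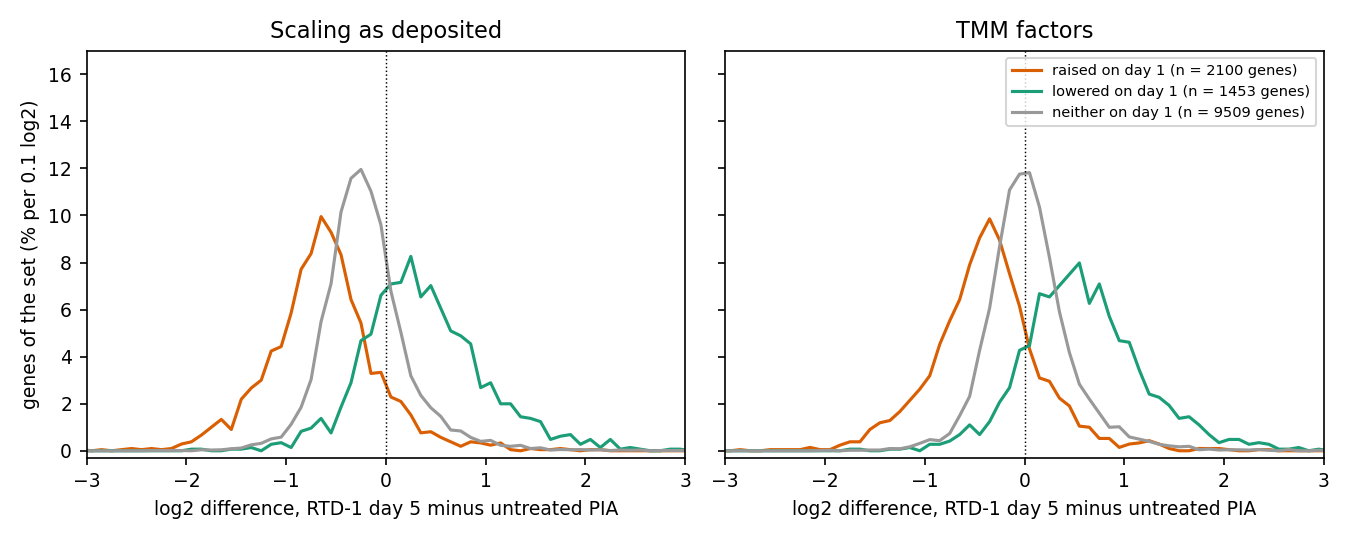
Distribution over genes of the log2 difference between RTD-1 day 5 (n = 8 libraries) and untreated PIA (n = 4), with the deposited scaling (left) and with TMM factors (right); lines are the genes raised, lowered or neither on day 1 of arthritis, and each point is the share of a set's genes in a bin of 0.1 log2. The raised genes lie to the left of the other genes and the lowered genes to the right under both scalings, with medians of -0.63 and 0.33 log2 on the left panel and -0.38 and 0.55 on the right.

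The median change was larger for genes with a larger arthritis response. Genes raised 2- to 4-fold on day 1 (1375 genes) had a median log2 difference of -0.56 between RTD-1 day 5 and untreated PIA. Those raised 4- to 16-fold (638 genes) had a median of -0.89 and those raised over 16-fold (87 genes) a median of -1.19. With TMM factors the medians were -0.30, -0.64 and -0.93. In each bin most of the distance to naive was left. Against naive tissue the medians of these 3 bins at RTD-1 day 5 were still 0.75, 1.76 and 3.36 log2 higher, beside 1.29, 2.53 and 4.40 in untreated PIA. On a scale with the naive mean at 0% and the untreated PIA mean at 100%, the 3 bins stood at 60.2% ± 15.4, 69.5% ± 14.9 and 79.2% ± 19.9 after RTD-1 (SD, n = 8 each). With TMM factors they stood closer together, at 73.6% ± 13.3, 76.6% ± 15.1 and 83.7% ± 20.6 (SD, n = 8 each), and differences between bins were not tested. All 87 genes raised over 16-fold were still called higher than naive after 5 days of RTD-1, as were 563 of 638 (88.2%) and 784 of 1375 (57.0%) of the less strongly raised sets. The counts with TMM factors were 87, 567 (88.9%) and 867 (63.1%). The same naive libraries chose these genes, which favours a call against naive, so the counts are a description. Of all genes tested 3349 (25.6%) differed between RTD-1 day 5 and naive tissue, 14.5% higher and 11.1% lower, and with TMM factors 32.1% differed, 17.1% higher and 15.1% lower. Untreated PIA differed from naive in 39.3% of genes, 27.8% higher and 11.4% lower, or 39.5% with TMM factors, 19.7% in each direction.

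For the lowered genes the medians also grew with the size of the response. Genes lowered 2- to 4-fold (723 genes) were 0.22 log2 higher at the median after RTD-1 than in untreated PIA, those lowered 4- to 16-fold (633 genes) 0.44 log2 and those lowered over 16-fold (97 genes) 0.86 log2. The medians with TMM factors were 0.46, 0.63 and 1.07. At RTD-1 day 5 they stood at -1.01, -1.95 and -3.50 log2 against naive tissue, beside -1.26, -2.38 and -4.30 in untreated PIA. The share of the distance left in the 3 bins was 80.5% ± 21.2, 81.0% ± 21.5 and 80.7% ± 24.1 (SD, n = 8 each), and with TMM factors 69.1% ± 17.6, 75.7% ± 20.4 and 77.8% ± 23.1 (SD, n = 8 each). Of the 97 most strongly lowered genes 94 (96.9%) were still called lower than naive, and 95 (97.9%) with TMM factors. Here too the naive libraries chose the genes, so the counts are a description.

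Counted gene by gene with the deposited scaling, return was incomplete. Of the 2100 raised genes, 473 had fallen against untreated PIA and were still called higher than naive, and 233 had fallen and no longer differed from naive by the test. Another 961 had not fallen by the test and were still higher than naive, and 433 passed neither test. With TMM factors these counts were 261, 90, 1260 and 489. Of the 1453 lowered genes, 33 had risen and were still below naive, 45 had risen and were not called against naive, 955 had not risen by the test and were below naive, and 420 fell in none of these counts. The same counts with TMM factors were 124, 71, 942 and 316. Both tests use the same RTD-1 libraries, and the naive libraries chose the sets. Missing a threshold does not show that a gene was back at its naive level.

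On the same scale, taken over a whole gene set, single libraries differed widely. On the raised genes the RTD-1 day 5 libraries stood at 42.4%, 44.9%, 66.3%, 77.4%, 69.1%, 79.0%, 83.4% and 66.7% in replicates 1 to 8, a mean of 66.1% ± 15.2 (SD, n = 8). Untreated PIA libraries ranged from 87.6% to 109.2% and naive libraries from -8.86% to 10.6%. All 8 RTD-1 libraries were below the lowest untreated PIA library and above the highest naive library. Replicates 1 and 2 were the nearest to naive and the only ones under 50%. With TMM factors the mean was 76.1% ± 14.8 (SD, n = 8), the libraries ran from 51.6% to 89.1%, and none overlapped untreated PIA, which ran from 95.2% to 109.2%.

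On the lowered genes the RTD-1 libraries stood at 61.4%, 39.8%, 104.3%, 78.5%, 79.3%, 102.6%, 89.1% and 91.4% in replicates 1 to 8, a mean of 80.8% ± 21.6 (SD, n = 8). Untreated PIA ran from 88.1% to 121.5%, so replicates 3, 6, 7 and 8 overlapped it and replicates 1, 2, 4 and 5 lay below it. With TMM factors the mean was 73.7% ± 19.7 (SD, n = 8), the range 36.7% to 94.5%, and untreated PIA ran from 91.3% to 119.5%, so that replicate 6 alone overlapped it. Replicate 3 was below untreated PIA on the raised genes and at the PIA level on the lowered genes with the deposited scaling. It had the lowest share of reads in genes of the group, 31.4%, and with TMM factors it stood at 88.1% and 87.9%, below untreated PIA on both sets.

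**Figure D2:**
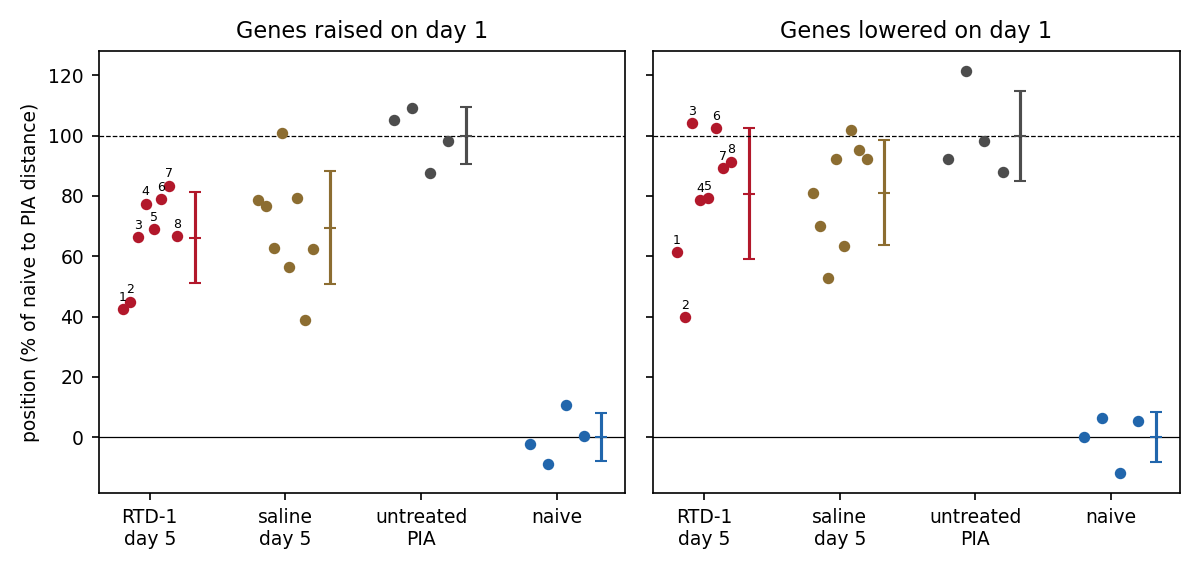
Position of each library between the naive mean (0%, solid line) and the untreated PIA mean (100%, dashed line) on the mean log2 level of the genes raised (left) and lowered (right) in arthritis, with the deposited scaling; points are libraries, numbers mark the RTD-1 replicates, and bars are mean ± SD. RTD-1 day 5 libraries average 66.1% and 80.8%, saline day 5 libraries 69.5% and 81.1%, and naive libraries lie near 0%.

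Replicates 1 to 4 of the RTD-1 group lay further from PIA on average than replicates 5 to 8, and the libraries overlapped. The raised genes stood at 57.8% ± 16.9 in replicates 1 to 4 and 74.5% ± 7.97 in replicates 5 to 8 (SD, n = 4 each), and the lowered genes at 71.0% ± 27.3 and 90.6% ± 9.55 (SD, n = 4 each). Against untreated PIA, limma called 2112 genes (16.2%) with replicates 1 to 4 and 105 (0.804%) with replicates 5 to 8, when both were separate groups of the fit. With TMM factors the counts were 1653 (12.7%) and 352 (2.69%). Compared directly, 4 genes (0.0306%) differed between replicates 1 to 4 and 5 to 8, with 1274 at an unadjusted p under 0.05 (limma), and 14 (0.107%) with TMM factors. The labels do not say what the replicate numbers stand for, and untreated PIA has replicates 1 to 4 only. Among single genes the spread between libraries was wider for the lowered genes than for the raised ones. The median SD over genes was 0.72 and 0.47 log2 in RTD-1 day 5 libraries, against 0.63 and 0.39 log2 in untreated PIA.

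Fewer genes passed the test on days 1 and 3 than on day 5. In comparisons that all share the untreated PIA libraries, the raised genes had a median log2 difference from PIA of 0.14 after 1 day of RTD-1 (n = 4), -0.27 after 3 days (n = 8) and -0.63 after 5 days (n = 8). With TMM factors these medians were 0.11, -0.12 and -0.38. The lowered genes had medians of -0.12, -0.08 and 0.33 on those days, of which the day 3 value was 0.04 with TMM factors. limma called 0 of 13062 genes after 1 day of RTD-1, where 273 had an unadjusted p under 0.05, and 1 gene after 3 days (0.00766%), beside 1656 after 5 days. With TMM factors limma called 0, 2 and 1269 genes. After 3 days of saline limma called 2 genes (0.0153%), but 81 (0.62%) with TMM factors. The differences between days were not tested. On the scale of distance from naive the raised genes stood at 107.9% ± 4.94 (SD, n = 4), 84.7% ± 16.7 and 66.1% ± 15.2 (SD, n = 8 each) after 1, 3 and 5 days of RTD-1. With TMM factors the raised genes stood at 107.3%, 91.4% and 76.1% after RTD-1, and at 107.7%, 82.9% and 77.2% after saline. The lowered genes then stood at 107.7%, 99.7% and 73.7% after RTD-1, and at 110.0%, 79.8% and 75.7% after saline. RTD-1 day 3 replicate 6 had the fewest reads in genes of the 58 libraries, 464693. It stood at 49.4% on raised and 145.9% on lowered genes, and at 83.9% and 119.3% with TMM factors. The day 1 libraries helped to choose the sets, so their own position is a description.

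**Figure D3:**
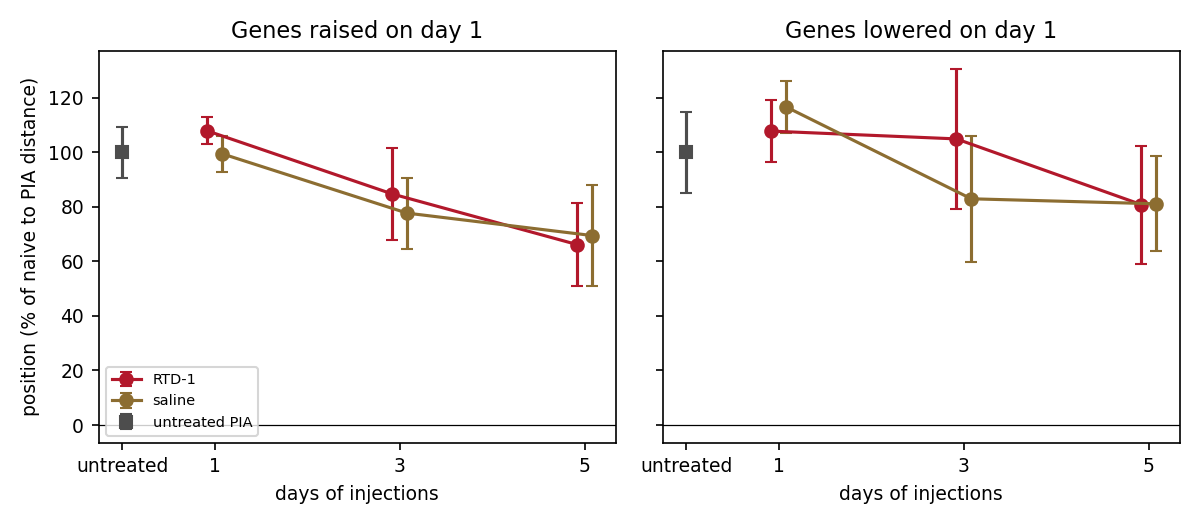
Position between the naive mean (0%) and the untreated PIA mean (100%) of the genes raised (left) and lowered (right) in arthritis, by days of injections; circles are means of RTD-1 and saline groups with SD (n = 4, 8 and 8 on days 1, 3 and 5), the square is untreated PIA (n = 4), and lines only join the means. With the deposited scaling the raised genes stood at 107.9%, 84.7% and 66.1% after 1, 3 and 5 days of RTD-1, and the lowered genes at 107.8%, 104.9% and 80.8%. After saline the raised genes stood at 99.5%, 77.7% and 69.5%, and the lowered genes at 116.6%, 82.9% and 81.1%.

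Rats given saline for 5 days showed changes of like size against the same untreated PIA libraries. Their raised genes stood at 69.5% ± 18.7 and their lowered genes at 81.1% ± 17.4 (SD, n = 8 each), with 509 raised genes fallen and 74 lowered genes risen, against 926 lower (7.09%) and 167 higher (1.28%) of all genes. With TMM factors they stood at 77.2% ± 12.9 and 75.7% ± 14.4 (SD, n = 8 each), with 348 raised genes fallen and 205 lowered genes risen, against 582 lower (4.46%) and 701 higher (5.37%) of all genes. RTD-1 and saline rats of day 5 were alike in days of disease and injections, and were also compared directly. limma called 0 of 13062 genes (0%), the lowest adjusted p was 0.998, and 470 genes had an unadjusted p under 0.05, 130 higher and 340 lower after RTD-1. limma with TMM factors, where 698 genes had an unadjusted p under 0.05, and limma voom also called 0. The order of the means was not the same in both replicate sets. In replicates 1 to 4 the raised genes stood at 57.8% ± 16.9 after RTD-1 and 79.7% ± 15.9 after saline, and in replicates 5 to 8 at 74.5% ± 7.97 in the RTD-1 libraries, against 59.3% ± 16.8 in the saline libraries (each ± is an SD of 4 libraries). The means with TMM factors were 68.2% in RTD-1 and 79.0% in saline replicates 1 to 4, and 84.0% in RTD-1 and 75.4% in saline replicates 5 to 8. This contrast was not tested. The median log2 difference of RTD-1 from saline was -0.06 for the raised genes and 0.00 for the lowered genes, and -0.04 for all genes. For 10302 genes (78.9%) the 95% interval of the difference lay within a 2-fold change in either direction, including 1653 of 2100 raised genes and 681 of 1453 lowered genes. For the other genes a 2-fold difference in 1 direction or the other lies within the interval.

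The genes with the largest changes are given as examples. They were picked for their change in this contrast, which favours large differences and low p-values. Their mean log2 level of at least 5 was taken over the RTD-1 day 5 and untreated PIA libraries. A gene could thus pass through the group where it was high. Their values are given as normalized reads, that is, reads rescaled to a library of median size. Differences are in log2 after 1 is added to each value, so that those of low genes are understated. The roles of these genes are not given by the files.

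ENSRNOG00000010278 had the largest fall among called genes with a mean log2 level of at least 5. It had 0, 2.81, 23.4, 104.6, 151.8, 31.4, 18.4 and 41.3 normalized reads in RTD-1 replicates 1 to 8, against 316.8, 141.2, 129.3 and 163.0 in untreated PIA. Replicates 1 and 2 held almost none, and replicate 5 lay within the PIA range. The log2 difference was -3.06 (SE 0.858, limma adjusted p = 0.0158), or -2.82 with TMM factors (limma adjusted p = 0.0259). The limma adjusted p was 0.0658 without PIA replicate 1 and 0.0517 without PIA replicate 4. With only replicates 5 to 8 of every group of 8 libraries it was 0.157. Naive libraries held 0, 7.69, 0 and 0, and RTD-1 day 5 stood 3.62 log2 above them (SE 0.858, limma adjusted p = 0.00103). After 5 days of saline it averaged 85.6 ± 91.8 (SD, n = 8) and ran from 12.5 to 261.9, and RTD-1 differed from saline by -1.20 log2 (SE 0.700, limma adjusted p = 0.998).

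ENSRNOG00000009342 was almost silent in naive synovium, at 0 to 2.08 normalized reads. It had 4.27, 4.21, 67.9, 18.4, 121.4, 141.4, 163.7 and 34.8 in RTD-1 replicates 1 to 8, against 310.0, 332.0, 149.3 and 326.1 in untreated PIA. Replicate 7 alone of the RTD-1 libraries exceeded the lowest PIA library, replicate 3. The log2 difference was -2.84 (SE 0.733, limma adjusted p = 0.00965), or -2.58 with TMM factors (limma adjusted p = 0.0179). Replicates 1 and 2 were again lowest. With only replicates 5 to 8 of every group of 8 libraries the difference was -1.41 (limma adjusted p = 0.0737). By time it averaged 416.0 ± 79.5 after 1 day (SD, n = 4), 195.8 ± 94.9 after 3 days (SD, n = 8) and 69.5 ± 64.4 after 5 days of RTD-1 (SD, n = 8). The saline means fell too, from 311.5 ± 36.3 after 1 day (SD, n = 4) to 127.6 ± 114.9 after 3 days and 100.2 ± 66.4 after 5 days (SD, n = 8 each). On day 5 RTD-1 differed from saline by -1.11 log2 (SE 0.599, limma adjusted p = 0.998).

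ENSRNOG00000004635 had the largest rise among the 82 genes called higher with a mean log2 level of at least 5. It reached that level through the RTD-1 libraries, as no untreated PIA library was above 4.80 log2. It had 82.9, 88.5, 74.9, 94.0, 114.8, 82.5, 192.9 and 122.8 normalized reads in RTD-1 replicates 1 to 8, against 2.25, 26.8, 4.46 and 2.88 in untreated PIA. The groups did not overlap, and no RTD-1 library was under 74.9. The log2 difference was 3.96 (SE 1.01, limma adjusted p = 0.00887), or 4.17 with TMM factors (limma adjusted p = 0.00487). It was in neither arthritis set. Naive libraries held at most 6.25, untreated PIA did not differ from them by the test (1.21 log2, SE 1.16, limma adjusted p = 0.430), and RTD-1 day 5 stood 5.17 log2 above naive (SE 1.01, limma adjusted p = 8.1e-05). Its change was thus away from naive tissue. Saline day 5 libraries spread more widely, from 4.15 to 143.7 with a mean of 69.7 ± 52.0 (SD, n = 8), and the difference from them was 1.11 log2 (SE 0.824, limma adjusted p = 0.998).

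ENSRNOG00000005348 belonged to the genes lowered in arthritis, at -2.11 log2 on day 1 against naive, although untreated PIA did not differ from naive by the test (-1.59 log2, limma adjusted p = 0.178). It had 372.5, 173.4, 35.1, 194.7, 54.1, 19.6, 35.8 and 81.5 normalized reads in RTD-1 replicates 1 to 8, against 11.3, 5.96, 17.8 and 1.92 in untreated PIA and 17.3 to 27.9 in naive libraries. All RTD-1 libraries lay above all PIA libraries, and 7 of the 8 lay above the highest naive library. The gene passed the level for naming through the RTD-1 libraries, as no untreated PIA library was above 4.23 log2. The log2 difference from PIA was 3.26 (SE 0.811, limma adjusted p = 0.0076), or 3.49 with TMM factors (limma adjusted p = 0.00304). It was 2.76 without PIA replicate 4 (limma adjusted p = 0.0599). With only replicates 5 to 8 of every group of 8 libraries it was 2.38 (limma adjusted p = 0.116). The difference from naive, 1.68 log2 (SE 0.811, limma adjusted p = 0.128), did not pass. Saline day 5 averaged 78.9 ± 49.6 (SD, n = 8), and the difference of RTD-1 from it was 0.35 log2 (SE 0.662, limma adjusted p = 0.998).

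**Figure D4:**
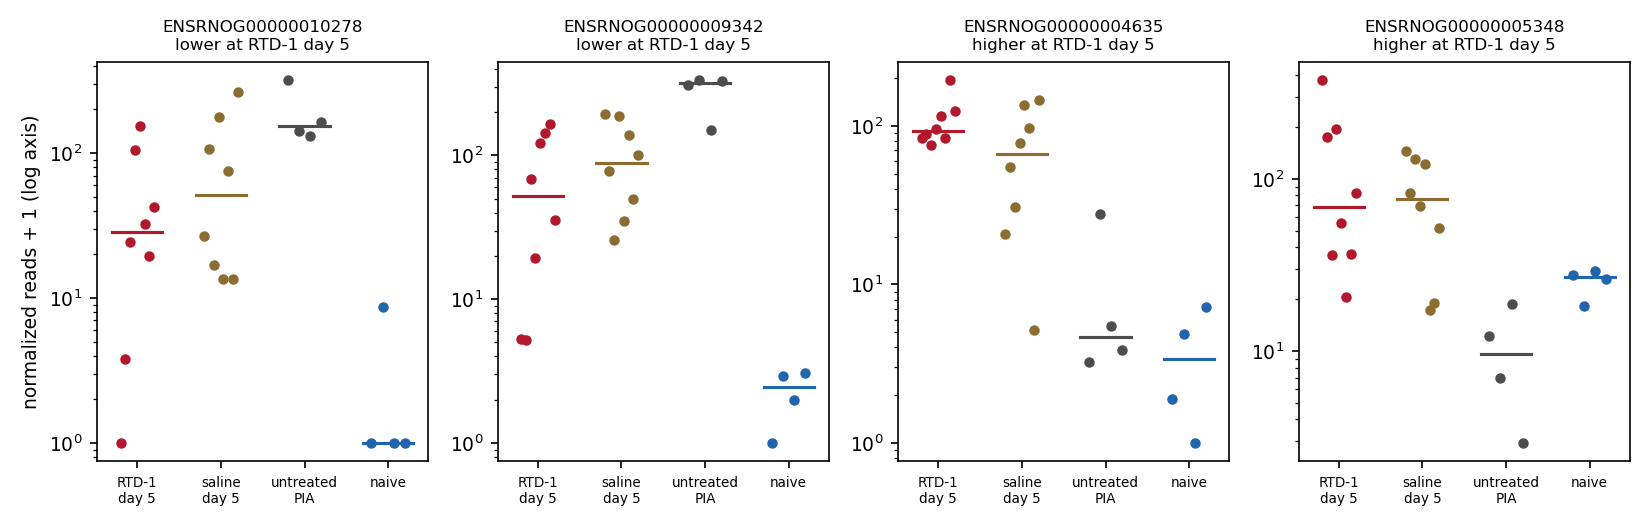
Normalized reads plus 1 on a log axis of the 2 genes that fell most and the 2 that rose most, among called genes with a mean log2 level of at least 5, in RTD-1 day 5 (n = 8) against untreated PIA (n = 4), with saline day 5 (n = 8) and naive libraries (n = 4); points are libraries and lines are medians. The RTD-1 libraries of ENSRNOG00000004635 lie between 74.9 and 192.9 normalized reads, above the highest untreated PIA library at 26.8, and for each gene the saline day 5 libraries overlap the RTD-1 libraries.

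Outside the arthritis sets the rises were few with the deposited scaling and more numerous after centring. Among the 9509 genes in neither set, 772 (8.12%) fell and 88 (0.925%) rose, against 232 (2.44%) and 452 (4.75%) with TMM factors. Called in the same direction with both scalings were 232 falls and 88 rises in this set, 351 falls and 8 rises among raised genes, and 2 falls and 77 rises among lowered genes. All falls with TMM factors were also falls with the deposited scaling, so the falls in common only repeat the TMM counts. They made up 16.7% of raised genes, 0.138% of lowered genes and 2.44% of the rest.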

How the data were processed

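The authors deposited 1 table of log2 values for 58 libraries of total RNA from synovium (stranded kit, 75 nt from 1 end, per the labels' protocols). The submitters' processing notes list HISAT and DESeq with no version or role. Genome build and annotation: not given in the sources used here. Undoing the logarithm gave whole reads times 1 factor per library for 100% of values above 0 (relative tolerance 0.001), with 0 reads held as 0.9 of a read. The row with no identifier (at most 0.0137% of reads) entered neither totals nor tests.

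Groups came from sample titles, and every column was used as its title states. Reads were rescaled to the median library, and genes were kept that reached 10 normalized reads in 4 or more libraries. limma 3.58.1 in R 4.3.3 fitted 10 group means to log2(normalized reads + 1) of all 58 libraries, with trend and robust moderation, and called genes on two-sided p-values with Benjamini-Hochberg adjustment (under 0.05). The labels do not tie libraries to animals, so the p-values rest on the spread among libraries, which may be technical. Pairs of libraries within the RTD-1 day 5, saline day 5, PIA and naive groups differed by at least 3.08 in chi-square per degree of freedom. Arthritis gene sets came from a separate limma fit of day 1 and naive libraries, with at least a 2-fold change. TMM factors were computed after their published definition (trims of 0.3 and 0.05). On simulated reads of RTD-1 day 5 against untreated PIA, over 12994 genes, 20% of genes changed 1.5-fold were recovered, 60% at 2-fold, 94% at 4-fold and 100% at 8-fold (50 genes each), with 4 false calls. The changed genes were drawn only from genes with a mean of at least 20 normalized reads over all libraries. Recovery among lower genes was not measured.

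The 2 genes per direction with the largest change are named, among called genes of mean log2 at least 5 over the libraries of both groups. This is the part of the naming rule that applies to genes without symbols. The 33 gene lists written for named genes were not analysed here. The comparison and lists were chosen with earlier results of these data known, and the arthritis sets, the direct comparison of RTD-1 replicates 1 to 4 with 5 to 8 and the gene counts by level were added after the data were seen. Alternatives were pseudocounts, filters, scalings, weights, a replicate block, limma voom, replicate sets and left-out libraries. Figures were drawn with matplotlib 3.10.9.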

Additional observations from a re-analysis of the deposited data

Results flagged for a closer look

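Extreme values, 3 in all, lay far from the rest of their group by Dixon's test at the 95% level, among 32 groups of values tested, where chance flags about 1 in 20. Reads in genes of saline day 5 replicate 1 were 6415288, against at most 2398902 in the other libraries of that group. The log2 value of ENSRNOG00000009342 in untreated PIA replicate 3 was 7.23, against at least 8.28 in the other PIA libraries. The log2 value of ENSRNOG00000010278 in naive replicate 2 was 3.12, with 0 in the other naive libraries.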

How the results depend on the processing

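The count of genes that differed between RTD-1 day 5 and untreated PIA, 1656, depended on the libraries and the fit. It was 2561 with limma array weights and 986 with a replicate block. It was 547 with only replicates 5 to 8 of every group of 8 libraries, where fewer libraries set the shared spread. With TMM factors it was 602 for that choice and 759 with only the groups compared, both added after the data were seen. RTD-1 day 5 replicates 5 to 8 gave 105 when all other libraries were kept and replicates 1 to 4 were a separate group. Leaving out 1 library gave 549 to 1934, lowest without PIA replicate 4 and highest without PIA replicate 3. With limma voom it was 2087 (141 higher, 1946 lower). The cause was not tested, apart from fewer libraries in some of these fits. Same-numbered PIA and RTD-1 libraries had correlated deviations of -0.21 to -0.01 over genes, and differently numbered ones of -0.15 to 0.18. So few libraries cannot settle whether the replicate numbers pair the samples. Left-out libraries gave 4225 to 5344 genes for PIA against naive, 2708 to 3536 for RTD-1 day 5 against naive and 0 for RTD-1 against saline on day 5, where replicates 1 to 4 only gave 1. The position of the RTD-1 libraries ran from 63.5% to 69.5% for raised and from 77.4% to 87.0% for lowered genes, and the median differences from -0.71 to -0.58 and from 0.21 to 0.39 log2. The raised median was -0.91 log2 for genes raised at least 4-fold. With only the groups compared ENSRNOG00000010278 and ENSRNOG00000009342 no longer passed (limma adjusted p of 0.121 and 0.0948), and with limma voom ENSRNOG00000004635 and ENSRNOG00000005348 did not (0.0786 and 0.0819). No named gene changed sign in any alternative run. Alternatives for the gene lists were not run. In the simulation, where genes varied independently, 20% of 1.5-fold changes were recovered among genes with a mean of at least 20 normalized reads. Depth was not varied.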
